A study of Homo sapiens with 18 samples.

Results

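Among the autosomal CpGs read at least 20 times by reduced representation bisulfite sequencing (RRBS) in each of 3 cancer cell lines, 3827 of 953749 were unmethylated in DU145 alone. The members were chosen by their RRBS methylation. A CpG was a member when at most 20% of its reads were methylated in DU145 and at least 80% in both HCT15 and PC3. The members are 0.401% of the CpGs that could qualify, called eligible below. HCT15 is a colorectal carcinoma line, while DU145 and PC3 are both prostate cancer lines. All are untreated, established lines, and each stands for 1 culture and not for its tissue. The labels name ATCC as the supplier of all 3 lines, whereas the methods give a hospital in Liège and a later passage for DU145. Genomic DNA of each line was read by RRBS in 1 library and by MBD-seq in 5, with the kits MethylMagnet, MethylCollector, MethylCollector Ultra, MethylCap and MethylMiner, each given 200 ng. The MethylMiner libraries stood apart, with about as much depth at CpGs unmethylated in all 3 lines as at methylated ones, so the MBD-seq tests are given with and without them. The question behind the series was how well the kits recover methylated DNA. The members bear on it because the signal should be missing from 1 line only.

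Cytosines followed by guanine carry most DNA methylation in human cells. CpGs are scarce in most of the genome and dense in CpG islands, which often lie at the 5′ ends of genes and are mostly free of methylation in normal cells, while many islands gain methylation in cancer lines. RRBS cuts DNA with MspI at CCGG and reads single CpGs near the cuts after bisulfite treatment, which turns unmethylated cytosine into uracil. MBD-seq instead captures whole fragments with the methyl-CpG binding domain of a protein, so that it responds to the number of methylated CpGs in a fragment and not to a single CpG.

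The members lay close together in CpG-dense DNA, which the reference sequence makes visible. The following stretches, of 180 bases each, hold the densest members of 3 of the largest regions that reach into a promoter, outside annotated UTRs. They are given in GRCh37 on the plus strand, with the CpGs that are members in capitals:
AMH, chr19:2250881-2251060 (+): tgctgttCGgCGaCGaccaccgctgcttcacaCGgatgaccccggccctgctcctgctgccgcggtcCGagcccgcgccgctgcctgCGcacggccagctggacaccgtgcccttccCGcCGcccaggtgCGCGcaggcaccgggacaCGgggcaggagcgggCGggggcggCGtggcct
FOXE1, chr9:100616197-100616376 (+): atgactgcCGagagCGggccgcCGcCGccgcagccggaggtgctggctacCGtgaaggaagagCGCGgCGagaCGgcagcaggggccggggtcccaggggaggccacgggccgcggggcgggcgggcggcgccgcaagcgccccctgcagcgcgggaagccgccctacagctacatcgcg
USP44, chr12:95942109-95942288 (+): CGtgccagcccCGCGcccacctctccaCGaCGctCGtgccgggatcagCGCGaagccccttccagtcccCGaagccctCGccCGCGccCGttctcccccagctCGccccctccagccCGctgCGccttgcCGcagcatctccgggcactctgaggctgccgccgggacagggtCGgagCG
The AMH stretch overlaps an exon of AMH, without being wholly exonic by that label, and held 13 members among 25 CpGs. The FOXE1 stretch is exonic and held 9 members among 27 CpGs, those towards its right end being no members. The USP44 stretch lies upstream of a gene on the minus strand and held 19 members among 23 CpGs.

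In the USP44 stretch, 96.7% of 691 reads over the members were methylated in HCT15, 1.18% of 1351 in DU145 and 96.5% of 856 in PC3, with a 95% Wilson interval of 0.730 to 1.92% in DU145. The FOXE1 stretch gave 97.0% (95.1 to 98.2%) of 473 reads in HCT15, 0.896% (0.581 to 1.38%) of 2231 in DU145 and 97.5% (95.9 to 98.5%) of 596 in PC3. DU145 was nearly free of methylated reads in both stretches. The AMH stretch differed from the other stretches in DU145, where 10.0% (8.57 to 11.7%) of 1384 reads were methylated, beside 96.4% (94.8 to 97.6%) of 703 in HCT15 and 92.1% (89.2 to 94.2%) of 453 in PC3. Here and over all members below, a read is counted at each member that it covers, so these intervals are too narrow even for counting error. They hold no variation between libraries, since each line was read once. The RRBS values chose the members and are a description.

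Over all members, 95.9% of 163375 reads were methylated in HCT15 (95.8 to 96.0%), 7.53% of 421271 in DU145 (7.45 to 7.61%) and 95.2% of 212010 in PC3 (95.1 to 95.3%). The median member had 97.1% methylation in HCT15, 6.25% in DU145 and 97.1% in PC3. In DU145, 502 members (13.1%) had no methylated read and 1650 (43.1%) had at most 5%. The median coverage of members was 36 in HCT15, 90 in DU145 and 46 in PC3, against 36, 66 and 47 for all eligible CpGs. Members were thus read more deeply than other CpGs in DU145 and not in the other lines.

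The limits of the rule cut through a continuous range in DU145, where 583 members lay above 15% and up to 20%, and 562 CpGs that met the other limits lay above 20% and up to 25%. For HCT15, 160 members lay at 80% to under 85% and 83 CpGs just outside at 75% to under 80%. The corresponding numbers for PC3 were 295 and 290. Fewer CpGs stood at the limit in HCT15 than at the other limits.

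The position relative to the MspI site set which CpGs could become members. CpGs inside CCGG made up 28.0% of the eligible CpGs but 0.758% of the members (29 CpGs). In each line the CpGs inside CCGG rarely read as unmethylated. The 5% point of their distribution was 34.2% in HCT15, 35.4% in DU145 and 32.1% in PC3, against 0 in each line for other CpGs. A methylation of at most 20% was found at 1.30%, 0.980% and 1.52% of CCGG CpGs, and at 39.5%, 42.9% and 46.3% of the others. Why CCGG CpGs read higher was not tested. Methylation averages over promoters and flanks below leave these CpGs out. The figures for all eligible CpGs keep them, although they rarely met the DU145 limit, so contrasts of members with eligible CpGs include this effect. Another gap is chromosome 22, for which the PC3 RRBS file held 0 CpGs, so that no CpG there was eligible.

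The members fell into CpG-rich DNA more often than the CpGs unmethylated in PC3 alone (7388) or in HCT15 alone (2807), which follow the same rule with the lines exchanged. The median number of CpGs within 100 bp was 20 for members, 10 and 9 for the PC3 and HCT15 sets, and 12 for all eligible CpGs. For CpGs unmethylated in all 3 lines it was 22, close to that of the members. A 500 bp window of at least 50% GC with an observed over expected CpG ratio of at least 0.6 surrounded 85.6% of members, 39.5% of the PC3 set, 28.2% of the HCT15 set and 49.9% of eligible CpGs. The median GC content around members was 69.4% and the median ratio 0.812. These are descriptions, because neighbouring CpGs are not independent and 1 library per line gives no replicate of a set.

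Of the members, 2047 (53.5%) lay within 1000 bp of an annotated 5′ end of a protein-coding transcript, the window called promoter here, against 45.0% of eligible CpGs. Put the other way, 0.477% of the eligible promoter CpGs were members. When members up to 1000 bp apart were joined into regions, 45.2% of the regions had a member in a promoter. That share counts a region by any of its members, so it cannot be set against the 45.0% of single eligible CpGs. No share by region was computed for eligible CpGs. Exons held 12.7% of members, introns 10.7%, and 23.1% lay outside protein-coding genes. The share in promoters was 29.1% in the PC3 set and 24.0% in the HCT15 set, whose largest class was intronic at 40.8%. The median distance to the nearest 5′ end was 806 bp for members, 9046.5 bp for the PC3 set, 4847 bp for the HCT15 set and 1724 bp for eligible CpGs. The bar plot of positions shows the members apart from both other sets in promoters, exons and CpG-rich windows.

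**Figure D1:**
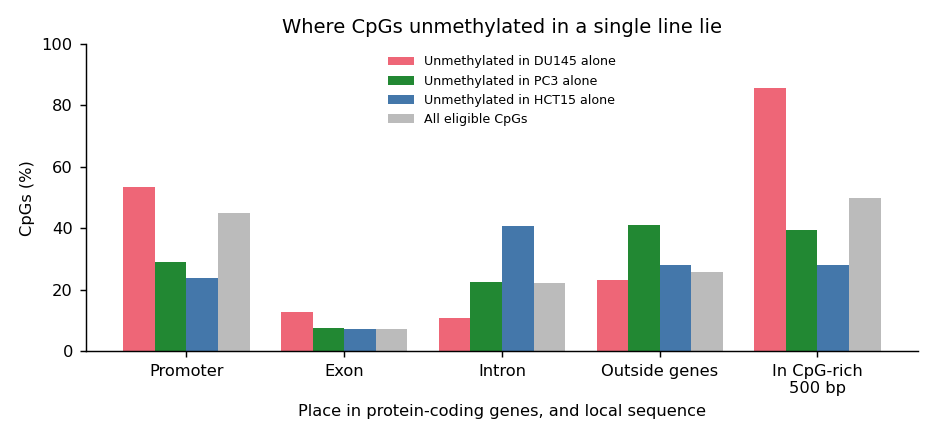
Share of CpGs (%) in each position relative to protein-coding genes, and in a CpG-rich window of 500 bp, for CpGs unmethylated in DU145 alone, in PC3 alone, in HCT15 alone, and for all eligible CpGs. Of the CpGs unmethylated in DU145 alone, 53.5% were in promoters and 85.6% in CpG-rich windows, above both sets of the other lines.

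Along the genome the members formed 1030 regions when CpGs up to 1000 bp apart were linked, or 3.72 members per region. The PC3 set had 1.72 and the HCT15 set 1.97 CpGs per region. Another member lay within 100 bp of 83.7% of members, against 54.9% and 64.4% in the other sets. Single CpGs made up 470 regions and 12.3% of members, against 41.2% of the PC3 set and 33.2% of the HCT15 set. At the other end, 98 regions of at least 10 members held 1561 members (40.8%), where the PC3 and HCT15 sets had 12.5% and 13.8% of their CpGs in such regions. The median length of these large regions was 321 bp, and the longest of all regions reached 2695 bp.

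Members that stood alone differed from those in large regions in more than number. A CpG-rich window surrounded 47.7% of the lone members and 96.5% of those in large regions, and 33.0% and 54.6% were in promoters. The median DU145 methylation was 9.09% for lone members and 4.65% in large regions. Yet 24.7% of the lone members had no methylated read in DU145, against 14.4% in large regions, so lone members spread more widely. Between chromosomes, the share of eligible CpGs that were members ran from 0.243% on chromosome 17 to 0.689% on chromosome 6.

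Between their first and last member the regions held 6373 eligible CpGs, of which 60.1% were members. All eligible CpGs were members in 93 of the 456 regions with at least 3 eligible CpGs. The CpGs in between that missed the rule mostly followed the same order of lines. In the 401 regions of at least 3 members, 1665 such CpGs outside CCGG had 89.4% of reads methylated in HCT15, 19.7% in DU145 and 72.4% in PC3. CpGs there with a coverage of 6 to 19, which the rule could not use, had 94.3% in HCT15 (1342 CpGs), 19.6% in DU145 (689) and 81.5% in PC3 (1074). The low level in DU145 thus extended to CpGs that the rule left out, and PC3 was less completely methylated there than HCT15.

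Around the 98 large regions the difference between lines faded with distance. Non-member CpGs within 25 bp of a member averaged 90.7% in HCT15, 16.2% in DU145 and 80.5% in PC3. At 100 to 200 bp the means were 87.1%, 22.7% and 73.1%. At 700 to 1000 bp DU145 (31.6%) and PC3 (32.4%) were level while HCT15 stood at 49.3%. Beyond 2000 bp and up to 3000 bp the means were 70.7%, 58.2% and 51.5%, so that PC3 had become the lowest. MethylCap depth in the same regions, divided by the mean depth at CpGs methylated in all 3 lines, was 1.24 at the region centre in HCT15, 0.358 in DU145 and 1.41 in PC3. At 3000 bp downstream in genome order it was 0.298, 0.179 and 0.226. In DU145 the centre lay above the level at 3000 bp but below the values at 500 bp on both sides, 0.519 and 0.555, whereas in HCT15 (0.805 and 0.960) and PC3 (0.639 and 1.01) it lay above them.

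**Figure D2:**
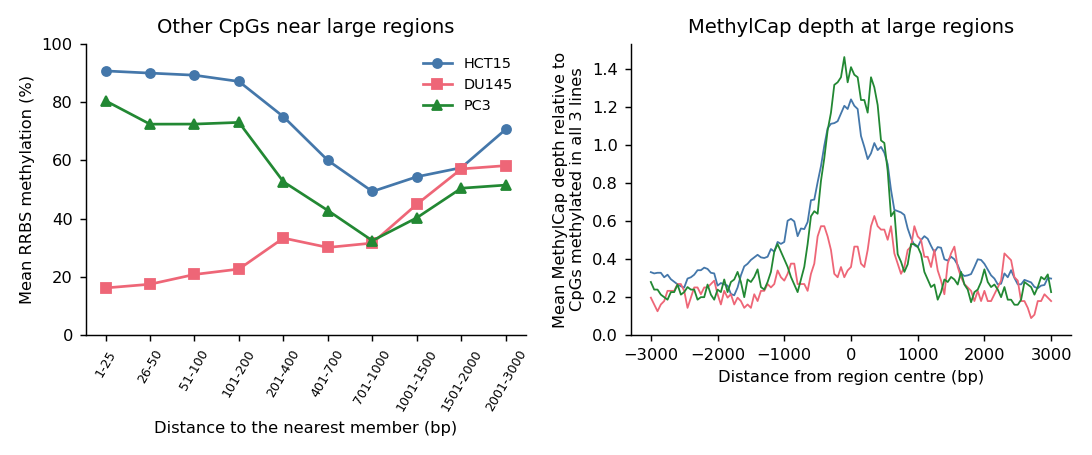
Left, mean RRBS methylation (%) of CpGs outside CCGG that were not members, against distance (bp, in classes) to the nearest member of the 98 regions with at least 10 members. Right, mean MethylCap depth relative to CpGs methylated in all 3 lines, against distance from the region centre (bp). DU145 stays lowest up to 1000 bp on the left and has 0.358 at the centre on the right, against 1.24 in HCT15 and 1.41 in PC3.

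The largest region lay at chr19:2250646-2252290, where 44 of 121 eligible CpGs were members, 35 of them in exons and 5 in introns of AMH and its neighbour JSRP1. AMH encodes anti-Müllerian hormone. The mean methylation of its members was 97.8% in HCT15, 13.2% in DU145 and 94.6% in PC3. The region at HOXA5, a homeobox transcription factor gene, spanned 412 bp on chromosome 7 with 37 of 49 eligible CpGs as members and means of 87.1%, 1.14% and 98.2%. It also overlaps HOXA3 and the antisense gene HOXA-AS3. At FOXE1, a forkhead factor of thyroid development, 32 members spread over 2695 bp (chr9:100614191-100616885) with a mean of 2.49% in DU145. The USP44 region (chr12:95941869-95942762) had 31 members, all in the promoter of this deubiquitinase gene, with a mean of 2.81%. At FOXB1, another forkhead gene, 31 members at chr15:60296555-60297759 had a mean of 3.61%.

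Not all large regions were promoters. An exon of SH2B2, an adaptor of receptor signalling, held 30 members within 300 bp (chr7:101961848-101962147), 31689 bp from the nearest 5′ end. An exon of LRFN1 held 22 members (chr19:39798004-39798624) and BEST4 held 24 across exon and intron (chr1:45250044-45250269). Outside protein-coding genes were 31 members at chr8:145103298-145104406, 5150 bp from OPLAH, and 25 at chr16:3232939-3233518, 4686 bp from the odorant receptor gene OR1F1. A region of 30 members at chr11:66885337-66886030 lay upstream of the histone demethylase gene KDM2A, 11 of them within its promoter window. The remaining regions among the 15 largest were at ECHDC3 (28 members), GPX7 (26), ATP2B4 (24) and FNDC1 (24). Across all 15, the mean of the members in DU145 ran from 1.14% at HOXA5 to 13.2% at AMH.

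Of 14058 protein-coding promoters with at least 3 eligible CpGs, 241 (1.71%) held at least 3 members, 59 held at least 10, and 480 promoters held any. In 30 promoters at least 3 members made up 50% or more of the eligible CpGs, but in 0 did all eligible CpGs qualify. HOXA5 came first with 37 of 52. USP44 followed with 31 of 50, then ECHDC3 with 28 of 47, FOXB1 with 28 of 53 and GPX7, which encodes a peroxidase of the endoplasmic reticulum, with 26 of 47. ATP2B4, a calcium pump of the plasma membrane, had 24 of 38 and FNDC1 24 of 59. FOXE1 had 21 of 39 and DNAH10, an axonemal dynein heavy chain, 21 of 42. The others of the first 15 were LHX2 (20 of 95), KLF2 (20 of 77), ERFE (18 of 103), HAND1 (18 of 28), CRACR2B (18 of 86) and RNF212 (17 of 39).

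Because the rule sets the values of members, promoters with a high share of them were methylated at most CpGs in both other lines. For HOXA5, the median over the 42 eligible CpGs outside CCGG was 85.9% in HCT15, 0.855% in DU145 and 98.4% in PC3. For HAND1, a transcription factor of heart and trophoblast development, it was 100%, 7.84% and 100%. For USP44 it was 100%, 1.63% and 95.9%. Among promoters with a low share, some were methylated at part of their CpGs. At KLF2, a Krüppel-like factor of endothelium and lymphocytes, the medians were 11.9%, 1.37% and 12.4%, and the members lay together with a median offset of 851 bp downstream of the 5′ end. At CRACR2B, a regulator of calcium entry, the medians were 2.57%, 2.00% and 6.85%. At ERFE, which encodes the iron-regulating hormone erythroferrone, they were 43.5%, 1.69% and 58.0%. LHX2, with a share of 21.1%, had medians of 95.5%, 10.3% and 94.9%.

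**Figure D3:**
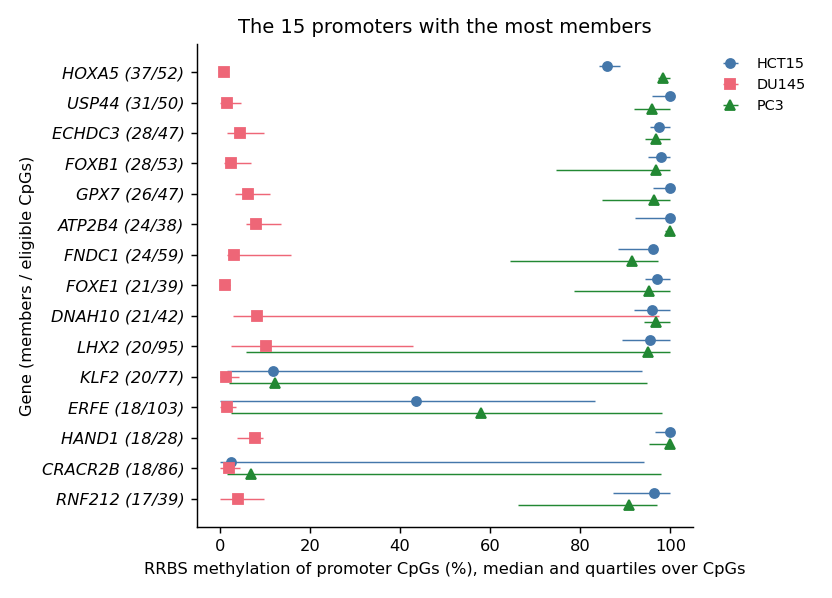
RRBS methylation (%) of the eligible CpGs outside CCGG in the 15 promoters with the most members, as median (marker) and quartiles (bar) over CpGs in each line. DU145 medians lie at or below 10.3% in all 15, while those of HCT15 and PC3 lie above 80% except at KLF2, ERFE and CRACR2B.

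In DU145 the CpGs of some promoters spread widely, with an SD over CpGs above 25% at DNAH10, FNDC1, LHX2, RNF212 and ATP2B4. In DNAH10 the DU145 median was 8.17% but the mean 42.2 ± 46.6% (SD over 36 CpGs), so part of the promoter was methylated in DU145 too. The means were 20.3 ± 33.7% in FNDC1, 24.7 ± 28.4% in LHX2, a LIM homeobox gene, 13.8 ± 26.2% in RNF212 and 17.7 ± 25.2% in ATP2B4. The eligible CpGs of HOXA5 spread little, at 1.13 ± 1.17%, but all lay downstream of the 5′ end. CpGs upstream that were read at least 20 times in DU145, though not in every line, reached 38.1% at 75 bp and 51.7% at 297 bp from it. The map of single CpGs around HOXA5 and USP44 shows members in dense groups. In HOXA5 their median offset was 352 bp downstream of the 5′ end, and in USP44 130 bp upstream.

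**Figure D4:**
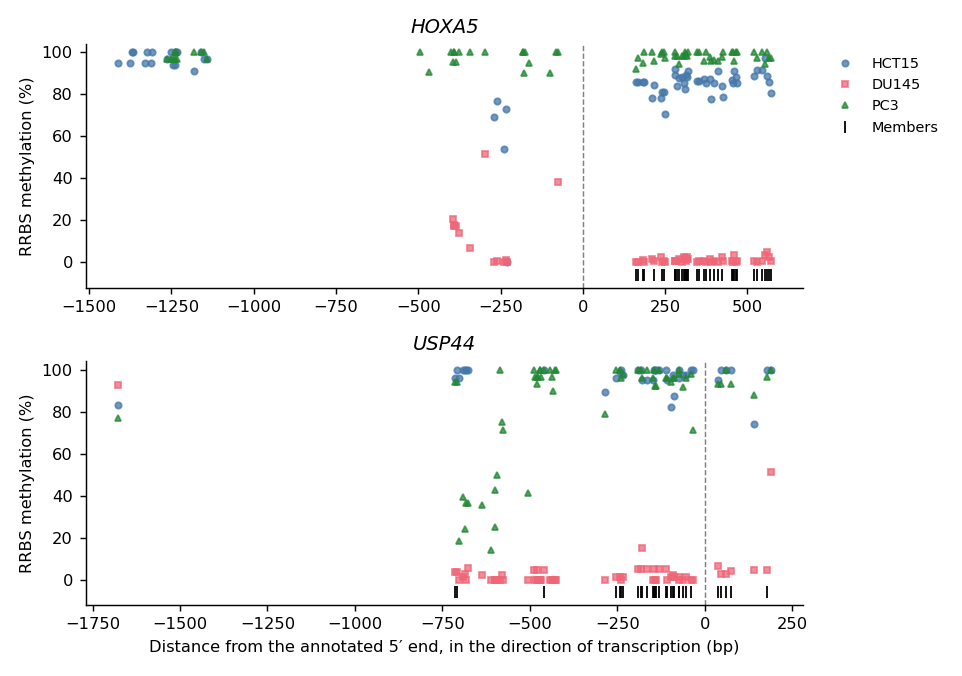
RRBS methylation (%) of single CpGs outside CCGG with a coverage of at least 20 in the line shown, against distance (bp) from the annotated 5′ end in the direction of transcription, for HOXA5 and USP44. Black ticks mark the members (37 and 31 in the 2 promoters). Most DU145 points lie near 0, but 7 of 55 at HOXA5 and 3 of 63 at USP44 lie above 10%, up to 51.7% and 92.9%, and PC3 is intermediate in a stretch upstream of USP44.

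The promoters were also counted over 8 gene lists, beside 0.442% of eligible CpGs as members over all protein-coding promoters. Among 39 HOX genes, which pattern the body axis, 3 promoters had at least 3 members, namely HOXA5, HOXC9 (11) and HOXC10 (4). HOXD1 had 2 and HOXD12 had 1. The DU145 median over eligible promoter CpGs outside CCGG was 24.2% at HOXC10 and 96.9% at HOXD12, against at most 1.54% at the other HOX genes with members. Members made up 3.47% of the eligible CpGs of these promoters, most of them from HOXA5. Of 53 clustered protocadherin genes, adhesion molecules of neurons, PCDHGC3 alone had members (7 of 11 eligible CpGs), with 2.29% over the list. Imprinted genes had 1 member at IGF2 (0.0762%). Germline genes had 4 at TDRD5, 2 at BRDT and 1 at BOLL (1.20%).

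Of 53 genes often methylated in tumours, 6 promoters had at least 3 members and 3 more had 1, which made 2.44% of eligible CpGs. SOCS3, an inhibitor of cytokine signalling, had 15 of 66. UCHL1, a ubiquitin hydrolase, had 9 of 16 and medians of 96.4% in HCT15, 1.90% in DU145 and 96.7% in PC3. CDKN2A, which encodes an inhibitor of cyclin-dependent kinases, had 9 of 31. HIC1, a transcriptional repressor, had 9 of 89. RASSF2, a Ras association gene, had 6 of 43 and DKK3, of the Dickkopf family, 3 of 41. IGFBP7, LOX and NDRG4 had 1 each. The DU145 median over eligible promoter CpGs outside CCGG was 42.6% at DKK3, 31.9% at IGFBP7 and 31.4% at NDRG4. At the other genes of this list with members it was at most 2.99%. The PC3 promoters in this list were often methylated in part only. At CDKN2A the medians over the window were 91.6%, 0% and 2.60%, and at SOCS3 82.5%, 0.877% and 2.56%, so that the PC3 median lay near that of DU145.

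The lists tied to cell identity held few members, and their shares lay on both sides of the 0.442% over all promoters. Among keratins and epithelial adhesion genes ZEB2, a repressor of epithelial genes, had 5 members (0.282% over the list). Among prostate lineage genes NKX2-1 had 8 (1.71%), a factor better known from thyroid and lung. Gut lineage genes had 1 member each at GATA4 and LGALS4 (0.258%). DU145 medians over eligible promoter CpGs outside CCGG were 33.8% at ZEB2, 21.2% at GATA4 and 97.2% at LGALS4, against 6.78% at NKX2-1. The keratin and gut lists lay below the share over all promoters and the prostate list above it, through NKX2-1 alone. Since RRBS chose the members, these shares are descriptions and carry no test.

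MBD-seq was the measure that the rule did not use. The 15 libraries differed widely in depth, from 9876 autosomal fragments for MethylMagnet in DU145 to 7163312 for MethylMiner in HCT15. DU145 had the fewest fragments with MethylMagnet, MethylCollector, MethylCollector Ultra and MethylCap. Summed depths at members therefore cannot be compared directly. With MethylCap they were 13409 in HCT15, 971 in DU145 and 3924 in PC3, from libraries of 3825379, 811203 and 932107 fragments. With MethylMagnet they were 2877, 113 and 7340. The mean depth at members was divided by that at CpGs with at least 80% methylation in all 3 lines, which gives a relative depth for each library.

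In HCT15, DU145 and PC3 the relative depth at members was 5.43, 1.19 and 4.29 with MethylMagnet. With MethylCollector it was 3.01, 0.797 and 2.64. With MethylCollector Ultra it was 2.21, 1.03 and 1.93. These kits gave DU145 the lowest value, and so did MethylCap with 1.16, 0.445 and 1.34. With MethylMiner the relative depths were 0.986, 1.20 and 1.20, and DU145 was not lower. In the same MethylMiner libraries CpGs unmethylated in all 3 lines had relative depths of 0.920, 1.04 and 1.28, whereas the other kits gave at most 0.120 there.

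**Figure D5:**
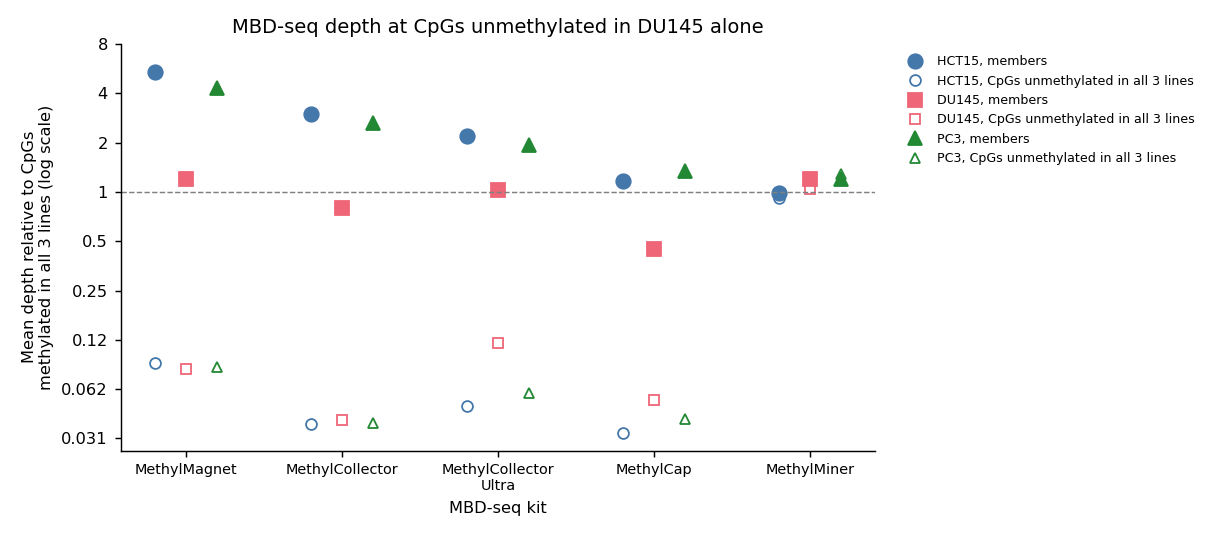
Mean MBD-seq depth relative to CpGs methylated in all 3 lines (log scale) for each kit and line, 1 library per point. Filled markers are the 3827 CpGs unmethylated in DU145 alone and open markers the CpGs unmethylated in all 3 lines. DU145 is the lowest filled marker with 4 of the 5 kits, and MethylMiner places filled and open markers together.

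The log2 relative depth in DU145 minus the mean of the other lines averaged -1.23 ± 0.86 (SD, n = 5 kits), a 2.35-fold lower depth. DU145 was lower in 4 of 5 kits. A two-sided exact permutation test that moved the DU145 label within each kit (smallest possible p 0.0041) gave p = 0.0082, adjusted p = 0.0123 over 3 comparisons. The difference was largest with MethylMagnet (-2.01), followed by MethylCollector (-1.82), MethylCap (-1.48) and MethylCollector Ultra (-0.99), while MethylMiner gave 0.14. Over all regions of members, DU145 had 44 fragments with MethylMagnet, 78 with MethylCollector, 450 with MethylCap, 63 with MethylCollector Ultra and 1067 with MethylMiner. Without MethylMiner the mean was -1.58 ± 0.45 (SD, n = 4 kits), or 2.98-fold lower. The exact permutation p was then 0.0123, the smallest possible with 4 kits. The kits are separate captures and not separate cultures, with 1 library per kit and line. These p values therefore speak of how DU145 stood across different kits and not of variation between cultures or repeated captures.

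Members in promoters gave -1.28 ± 0.95 (SD, n = 5 kits; exact permutation p = 0.0123, adjusted p = 0.0123) and those outside promoters -1.20 ± 0.78 (n = 5; exact permutation p = 0.0082, adjusted p = 0.0123). Without MethylMiner the means were -1.63 and -1.53 (n = 4 kits; exact permutation p = 0.0123 each, the smallest possible). The difference between these places was not tested. Against HCT15 alone or PC3 alone the means for all members were -1.26 and -1.21, but 5 pairs allow no two-sided exact permutation p below 0.0625, so neither could pass.

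The depth at members in DU145 was low beside the other lines without falling to that of unmethylated DNA. At CpGs unmethylated in all 3 lines, DU145 had relative depths of 0.0827 with MethylMagnet, 0.0407 with MethylCollector, 0.120 with MethylCollector Ultra and 0.0535 with MethylCap, all under the values at members. The mirrored sets came closer to it. CpGs unmethylated in PC3 alone had 0.214, 0.217, 0.262 and 0.345 in the PC3 libraries of these kits. CpGs unmethylated in HCT15 alone had 0.237, 0.137, 0.151 and 0.182 in the HCT15 libraries. The sets differ in CpG density and the libraries in depth, and their part in this was not tested. The DU145 values at members rest on few fragments with MethylMagnet, MethylCollector and MethylCollector Ultra, as given above.

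In the methylated lines the depth at members differed with region size. With MethylMagnet in HCT15 the relative depth was 1.61 for lone members, 3.06 in regions of 2 to 3, 4.54 in regions of 4 to 9 and 8.18 in regions of at least 10. In DU145 the same kit gave 0.601, 1.00, 1.39 and 1.29. With MethylCap the values in HCT15 stayed between 1.06 and 1.19 and those in DU145 between 0.431 and 0.512, while those in PC3 were 1.05, 1.15 and 1.33 in the same order of size, and highest in regions of at least 10. Between lone members and large regions the HCT15 value was thus several times higher with MethylMagnet and little higher with MethylCap. The number of CpGs within 100 bp rose with region size too, from a median of 11 for lone members to 24 in large regions.

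In the 98 large regions, MethylCap placed 1232 (HCT15), 86 (DU145) and 378 (PC3) fragments, or 322, 106 and 406 per 1000000 fragments of the library. A fragment was present in 95, 42 and 89 of these regions. With MethylCollector Ultra the numbers on this scale were 1226, 501 and 972, from 786, 15 and 551 fragments. With MethylCollector they were 2712, 719 and 2396, and with MethylMagnet 5023, 1418 and 3058. With MethylMiner they were 54.7, 92.9 and 95.9, so that HCT15 and not DU145 was lowest. The DU145 numbers of MethylMagnet, MethylCollector and MethylCollector Ultra rest on 14, 21 and 15 fragments.

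At single genes the counts were small and, since DU145 had the smallest library with every kit but MethylMiner, are given as counts only. Over the HOXA5 region, the numbers of MethylCap fragments in HCT15, DU145 and PC3 were 12, 1 and 3. MethylMagnet had 6, 0 and 8 there, MethylCollector 7, 0 and 5, and MethylCollector Ultra 11, 0 and 7. MethylMiner had 5, 7 and 4. Over the USP44 region, MethylCap had 25, 0 and 4, MethylMagnet 5, 0 and 9, MethylCollector 15, 1 and 6, MethylCollector Ultra 15, 0 and 8, and MethylMiner 1, 4 and 2. A count of 0 still allows up to 3 fragments. Across the 15 largest regions, MethylCap had 334, 16 and 93 fragments, or 87.3, 19.7 and 99.8 per 1000000 fragments of the library. On this scale DU145 was the lowest line in all 15 with MethylCap, 13 with MethylMagnet, 11 with MethylCollector, 12 with MethylCollector Ultra and 2 with MethylMiner. The DU145 counts of MethylMagnet, MethylCollector and MethylCollector Ultra over all 15 were 2, 7 and 6, too few to rank a single region.

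AMH had the most DU145 fragments among these regions, with 8 by MethylCap against 63 in HCT15 and 15 in PC3. The AMH region also had the highest mean RRBS methylation of DU145 among the 15. At the KLF2 members, all 15 libraries had 0 fragments, so MBD-seq gave no reading there. Among the 13 listed genes with at least 3 members, MethylCap gave 97 (HCT15), 10 (DU145) and 18 (PC3) fragments over the spans of their members, or 25.4, 12.3 and 19.3 per 1000000 fragments. DU145 had 0 in 8 of these genes and PC3 in 5, among them UCHL1 with 7, 0 and 0, while SOCS3 had 9, 0 and 4. On the scaled counts DU145 alone was lowest in 5 of the 13 genes and PC3 alone in 4. PC3 had fewer MethylCap fragments than DU145 at NKX2-1 (10, 3 and 0), HIC1 (18, 4 and 3) and RASSF2 (6, 1 and 0). MethylMagnet, MethylCollector and MethylCollector Ultra together went the other way at these genes. Their counts in DU145 and PC3 were 1 and 23 at NKX2-1, 1 and 12 at HIC1, and 0 and 11 at RASSF2. With each of these kits the DU145 library was smaller than the PC3 library.

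CpG by CpG, MethylCap showed no depth in DU145 and some depth in both other lines at 1528 members (39.9%, exact 95% interval 38.4 to 41.5%). The same pattern was found at 11.5% of all eligible CpGs and at 20.8% of CpGs methylated in all 3 lines. The opposite pattern, with depth in DU145 alone, was found at 25 members (0.653%) against 2.57% of eligible CpGs. In promoters the first pattern held for 40.0% of members. Members within a fragment length share fragments, so the interval is too narrow, and with each region counted once the share was 36.7%. Requiring at least 2 fragments in both other lines lowered it to 17.5%. No depth in DU145, whatever the other lines had, was found at 79.6% of members and 61.9% of CpGs methylated in all 3 lines. Among all eligible CpGs, which include those unmethylated in all 3 lines, it was found at 77.3%.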

How the data were processed

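MBD-seq was done on 15 libraries (5 kits, 3 cell lines, 1 library each) and RRBS on 3. In MBD-seq the authors deposited a signal, namely how many mapped fragments cover each run of bases (depth or coverage), unscaled and with duplicates collapsed. Bowtie and hg19 are named in the submitters' processing notes. Run positions were taken as counted from 0. The deposited RRBS values are 2 counts per CpG, namely its methylated reads and its coverage, over both strands and from a coverage of 6. The RRBS aligner is not given in the sources used here.

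Members had a coverage of at least 20 in all 3 lines, at most 20% methylation in DU145 and at least 80% in HCT15 and PC3. The members, gene lists and tests were chosen with earlier results of these data known. Places come from GENCODE lifted to GRCh37, with a promoter window of 1000 bp around every annotated 5′ end of protein-coding transcripts. Members up to 1000 bp apart formed a region. The text names the 15 regions and the 15 promoters with the most members and the listed genes with at least 3. Genes in the closing observations were chosen after their values were seen.

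The log2 relative depth (pseudocount 0.5 on the summed depth) was tested by an exact permutation within kits, with Benjamini-Hochberg adjustment over 3 values. The kit pairs the libraries by the labels. Deviations from line means correlated at 0.37 for HCT15 and DU145, 0.99 for HCT15 and PC3 and 0.37 for DU145 and PC3. The test was checked on simulated depths, drawn as independent counts with equal scatter in each line. That setting leaves out fragments shared between CpGs and the unequal correlations above. The sequence of 1 further stretch is not reported here. The depth limits single genes, since libraries held 9876 to 7163312 autosomal fragments and RRBS had a median coverage of 31 to 46 at CpGs read at least 20 times. Alternatives changed the coverage minimum, methylation limits, scaling, pseudocount, promoter window, linking distance and kits. CCGG CpGs were left out, and large regions taken alone, as alternatives chosen after seeing the data. The tools were scipy 1.17.1, pandas 2.3.3, numpy 2.4.6, matplotlib 3.10.9 and pysam 0.24.0 under Python 3.11.15.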

Additional observations from a re-analysis of the deposited data

Results flagged for a closer look

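For members outside promoters, the MethylMiner difference of 0.14 between DU145 and the other lines stood far from those of the other 4 kits, which ran from -1.83 to -1.28. Its gap to the nearest kit was 0.724 of the whole range, above the critical value of 0.71 for 5 values. Chance flags about 1 in 20 such groups, and 12 groups of values were examined at both ends. The cause was not tested.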

How the results depend on the processing

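The 3 MBD-seq differences were recomputed under 18 alternatives each, and that for all members under 1 more (regions of at least 10 members), which gave 55 values. All kept their direction, 49 also their side of the 0.05 threshold, and none reversed. The other 6 set DU145 against a single line, a design whose smallest exact p of 0.0625 cannot pass. Against HCT15 the means were -1.26 for all members, -1.32 in promoters and -1.20 outside (adjusted p 0.125 each, exact permutation). Against PC3 they were -1.21, -1.24 and -1.19 (adjusted p 0.0938, 0.125 and 0.0938, exact permutation). Leaving out 1 kit in turn gave -1.58 to -1.04 for all members, -1.63 to -1.05 in promoters and -1.53 to -1.04 outside. Without the replicate block of kits, the mean for all members stayed -1.23 with a permutation adjusted p of 0.0163, and no call changed.

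Counts and shares moved more. A coverage of at least 10 gave 6201 members, 51.5% in promoters and 38.4% with depth missing from DU145 alone by MethylCap. A coverage of at least 50 gave 924 members in 368 regions, 56.1% and 43.0%. Limits of 10 and 90% gave 1945 members in 576 regions and a MethylCap share of 42.5%. Promoter windows of 500 and 2000 bp held 41.5% and 62.6%. With each region counted once the shares were 45.2% and 36.7%. Requiring at least 2 fragments in both other lines gave 17.5%. Depth limits what single CpGs and genes can show, above all in DU145, where 3 kits placed at most 21 fragments in the 98 large regions.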

Other observations

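The following promoters stood outside the rule for named genes and were chosen after their values were seen, for a high share of members or for a known role. BVES, a membrane protein of muscle and epithelium, had 14 of 18 eligible CpGs as members, with RRBS medians of 95.3% in HCT15, 0% in DU145 and 97.4% in PC3. IRAK3, an inhibitor of Toll-like receptor signalling, had 12 of 17, with medians of 96.5%, 1.83% and 89.5%. AKR1B1, the aldose reductase gene, had 10 of 18, with medians of 95.8%, 2.22% and 95.2%. IKZF1, a transcription factor of lymphocytes, had 13 of 29 and medians of 100%, 4.85% and 87.3%. No expression was measured, so these values speak of methylation only.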
